A study of Mus musculus with 14 samples.

Results

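The complement components examined here were 9 genes of the classical and alternative pathways, C1qa, C1qb, C1qc, C1ra, C2, C3, C4b, Cfb and Cfd, picked by name from the 42687 genes of the count table. Their transcripts were counted in RNA from the retinal pigment epithelium (RPE), the pigmented monolayer between the photoreceptors and the choroid, of male C57BL/6J mice aged 3 months, with both eyes of 1 mouse pooled into 1 library. The 14 libraries fell into 3 sets that shared no library, each with its own knockout (KO) mice, whose genotype was Best1-Cre+/-; Clic4f/f in all 3 sets. The WT set held 3 wild-type and 3 KO libraries, the Ctrl set held 2 libraries from Clic4f/f littermates without Cre and 2 KO libraries, and the CreCtrl set held 2 libraries from mice that carried Best1-Cre+/- with unfloxed Clic4 and 2 KO libraries. Best1-Cre is driven by a promoter that acts in RPE cells and only after birth, so other cells in the preparation keep Clic4. The RPE cells were shaken off opened eyecups after trypsin, a step that can carry along cells of the choroid. Control genotype and set went together, so the effect of the set and that of the control genotype cannot be told apart.

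Complement is a cascade of blood and tissue proteins that tags surfaces for removal. In the classical pathway C1q, built from the A, B and C chains, binds a target and activates the proteases C1r and C1s, which cut C4 and C2 into the enzyme that cleaves C3. The alternative pathway amplifies C3 cleavage with factor B (Cfb) and factor D (Cfd), and is held together by properdin (Cfp). C1q is made mainly by macrophages and other myeloid cells, C1r, C1s, C3 and C4 also by fibroblasts and other stromal cells, and Cfd mainly by fat cells. Variants of complement genes are linked to age-related macular degeneration, which is why this pathway is followed in the RPE.

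C1qa, C1qc and C1qb lie next to each other on chromosome 4 of GRCm38, on the minus strand, at chr4:136895917-136898803, chr4:136889804-136893065 and chr4:136880129-136886187 in the GENCODE M21 annotation. C1ra is at chr6:124512405-124523443 on the plus strand. C2 (chr17:34862604-34898265), Cfb (chr17:34856374-34862518) and C4b (chr17:34728380-34743882) share the complement cluster of chromosome 17 on the minus strand, and C3 is farther along at chr17:57203970-57228136, also on the minus strand. Cfd is at chr10:79890853-79892655 on the plus strand. The gene model Gm20547 overlaps 79.5% of the exon bases of Cfb and 42.8% of those of C2 on the same strand, and it was listed at 0 in all 14 libraries. How reads shared by overlapping genes or by near-identical copies (C4a with C4b, C1rb with C1ra) were assigned is not given in the sources used here, so the levels of Cfb, C2, C4b and C1ra are uncertain to that extent. C1rb was also listed at 0 in all 14 libraries.

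RefSeq promoters of GRCm38.p6, 250 bases before to 50 after the start site, were held for 5 of the 9 genes, C1qb, C1qc, C1ra, C3 and Cfd. Those of the C1q chains, which moved together across libraries, and of C1ra and C3, which were lower in KO, are shown 5′ to 3′ along the gene, with matches to 6 motifs in capitals.
C1qb promoter, chr4:136886151-136886450, minus strand: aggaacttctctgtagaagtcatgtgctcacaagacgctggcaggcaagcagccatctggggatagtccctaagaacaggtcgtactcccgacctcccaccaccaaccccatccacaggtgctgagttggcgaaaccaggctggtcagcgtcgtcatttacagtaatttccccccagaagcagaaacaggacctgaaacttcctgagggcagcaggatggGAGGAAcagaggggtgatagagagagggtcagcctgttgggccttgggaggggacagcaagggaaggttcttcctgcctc
C1qc promoter, chr4:136892865-136893164, minus strand: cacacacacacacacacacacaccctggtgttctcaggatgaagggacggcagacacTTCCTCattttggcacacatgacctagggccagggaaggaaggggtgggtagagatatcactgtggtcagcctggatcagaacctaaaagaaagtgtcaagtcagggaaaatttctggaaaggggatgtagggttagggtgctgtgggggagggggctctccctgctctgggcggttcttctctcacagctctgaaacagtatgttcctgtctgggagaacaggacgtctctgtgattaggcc
C1ra promoter, chr6:124512371-124512670, plus strand: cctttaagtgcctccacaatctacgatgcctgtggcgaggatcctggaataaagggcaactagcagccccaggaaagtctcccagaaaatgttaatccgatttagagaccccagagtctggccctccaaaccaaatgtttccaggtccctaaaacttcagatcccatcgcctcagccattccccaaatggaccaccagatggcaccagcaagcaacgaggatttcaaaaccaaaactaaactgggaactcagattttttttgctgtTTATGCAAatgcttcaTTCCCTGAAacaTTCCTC
C3 promoter, chr17:57228087-57228386, minus strand: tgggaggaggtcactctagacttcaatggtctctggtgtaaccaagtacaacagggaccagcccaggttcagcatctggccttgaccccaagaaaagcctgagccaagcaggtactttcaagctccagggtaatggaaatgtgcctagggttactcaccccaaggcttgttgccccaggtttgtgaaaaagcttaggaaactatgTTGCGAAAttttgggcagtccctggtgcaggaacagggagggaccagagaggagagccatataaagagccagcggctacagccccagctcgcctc

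The motifs were searched on both strands and positions count from the RefSeq start site to the leftmost base of the match. For C1ra and C1qc the RefSeq start site lies inside the M21 gene given above, and most of the C1ra window is within that gene. GAGGAA, the core bound by the myeloid factor PU.1, was found in 3 of the 5 promoters: at -30 in C1qb, and as its reverse complement at -193 in C1qc and at 45 in C1ra. It occurs in 28.3% of the 32851 mouse promoters of the same length, so a match is common. The C/EBP motif TTNNGCAA, held by 10.8% of promoters, was found at 17 in C1ra and as its reverse complement at -45 in C3. The gamma-activated site TTCNNNGAA, held by 8.3%, was found at 33 in C1ra. None of the 5 held GGANNTTCC (NF-kB, 4.26% of promoters), TGANTCA (AP-1, 7.81%) or GAAANNGAA (interferon-stimulated, 8.56%). The matches in C1ra did not overlap each other, and a match is a description of letters and not a site of binding.

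The depth was 9828293 to 32384166 counted reads per library. Levels are given as CPM, the counts of a gene relative to the depth of its library, scaled within a set by the trimmed mean of M-values. A gene was called where edgeR's quasi-likelihood test gave a Benjamini-Hochberg adjusted p under 0.05 over all genes tested and the fold was above 1.5. Clic4 was lower in every KO library than in any control library of its set, at 17.9 to 32.57 CPM against 240.0 to 248.1 in the WT set, 9.39 to 32.61 against 59.37 to 69.1 in the Ctrl set and 13.16 to 30.4 against 86.4 to 108.4 in the CreCtrl set. It was called in the WT and CreCtrl sets and not in the Ctrl set, where no gene was called. RPE markers were present in all 14 libraries, and in 1 KO library, replicate 2 of the Ctrl set, myeloid markers and C1q were far above those of the other KO libraries, as given below.

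The recognition chains of C1q were lower in KO than in WT. C1qa, which encodes the A chain, was at 197.7, 259.2 and 196.1 CPM in the WT libraries and at 26.75, 14.93 and 8.75 CPM in the KO libraries. C1qb was at 166.3, 258.9 and 187.7 CPM in WT and 28.09, 17.37 and 6.48 CPM in KO, and C1qc at 174.3, 246.3 and 187.1 CPM in WT and 20.6, 20.88 and 5.48 CPM in KO. The groups did not overlap for any chain, and the lowest WT level was several times the highest KO level. The log2 fold changes in KO over WT were -3.69 ± 0.37 (SE) for C1qa, -3.56 ± 0.46 for C1qb and -3.69 ± 0.45 for C1qc, with 3 libraries a group. The adjusted p-values of edgeR's quasi-likelihood test were 0.000157, 0.000541 and 0.000388.

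C1q was also lower in KO than in CreCtrl mice. C1qa was at 22.76 and 58.48 CPM in CreCtrl and at 5.13 and 10.08 CPM in KO, C1qb at 24.94 and 53.74 against 4.13 and 8.66 CPM, and C1qc at 27.16 and 59.37 against 4.29 and 7.55 CPM. Both KO libraries lay below both controls for each chain. The log2 fold changes were -2.41 ± 0.49 (SE), -2.61 ± 0.46 and -2.86 ± 0.43, with adjusted p-values of 0.0237, 0.0146 and 0.00906 in edgeR's quasi-likelihood test. These calls were lost when the spread was estimated over all 14 libraries as 6 groups, where edgeR gave adjusted p-values of 0.116, 0.101 and 0.0888. Without CreCtrl replicate 2 the change was -1.62 for C1qa and -2.23 for C1qc, and without KO replicate 2 of the set that of C1qb was -3.24, each still called.

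In the Ctrl set the C1q chains did not separate KO from control. C1qa was at 92.16 and 38.11 CPM in Ctrl and at 13.4 and 140.9 CPM in KO, C1qb at 81.65 and 34.56 against 12.46 and 124.5 CPM, and C1qc at 95.15 and 34.02 against 10.58 and 125.9 CPM. KO replicate 1 was below both controls and KO replicate 2 above both, so the 2 KO libraries bracketed the controls. The log2 fold changes were 0.25 ± 1.01 (SE), 0.24 ± 0.99 and 0.082 ± 1.07, and none was called. Without KO replicate 2 they became -2.28, -2.21 and -2.60, with adjusted p-values of 0.199, 0.202 and 0.191 in edgeR, a fit that assumes that the lone KO library varies as the controls do.

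The 3 chains kept nearly constant proportions to each other. Per kilobase of exon, the level of C1qb was 0.708 to 1.11 times that of C1qa over the 14 libraries, with a median of 0.873, and that of C1qc was 0.337 to 0.753 times that of C1qa, with a median of 0.481. The summed C1q level meanwhile ran from 13.56 to 764.4 CPM. The pattern of C1qa over the 14 libraries differed from that of C1qb by a root mean square of 0.167 on the log2 scale after centring, C1qb differed from C1qc by 0.190 and C1qa from C1qc by 0.276. The closest pair of the 9 genes that was not 2 C1q chains, C1ra and C4b, differed by 0.808. The genes most like the mean C1q pattern among those with a mean of at least 1 CPM were Fcgr3, an Fc receptor of myeloid cells, at 0.227, C5ar1, the receptor of the complement fragment C5a, at 0.322, and Laptm5, a lysosomal protein of blood cells, at 0.373.

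Myeloid markers moved with C1q. Of 12 macrophage and other myeloid markers, 11 were called lower in KO than in WT, 10 were called lower than in CreCtrl and none was called against Ctrl. Among all genes tested, 17.6%, 12.2% and 0% were called lower in these comparisons. Csf1r, the receptor of the macrophage growth factor, was not called lower in any set and was at 739.7 to 808.1 CPM in KO and 520.6 to 559.2 CPM in WT. Summed over the 12 markers, the levels were 1779 to 3050 CPM in WT and 830.2 to 974.8 in KO, 947.5 to 1415 in Ctrl and 843.1 to 2557 in KO, and 944.9 to 1277 in CreCtrl and 752.3 to 778.6 in KO. Without Csf1r, which was set aside after its values were seen, KO replicate 2 of the Ctrl set had a sum of 1888 CPM where the other 6 KO libraries had 37.54 to 216 CPM. The ratio of summed C1q to the sum of those 11 markers was 0.207 to 0.630 over the 14 libraries, with a median of 0.325, and with Csf1r kept in the sum it was 0.018 to 0.303. Aif1 and Cx3cr1 were at 0 in 1 KO library of the WT set, and the other 10 markers were detected in all 14. In these bulk samples fewer cells of a type and less RNA per cell cannot be told apart, and the part of myeloid cells in the C1q result was not tested.

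**Figure D1:**
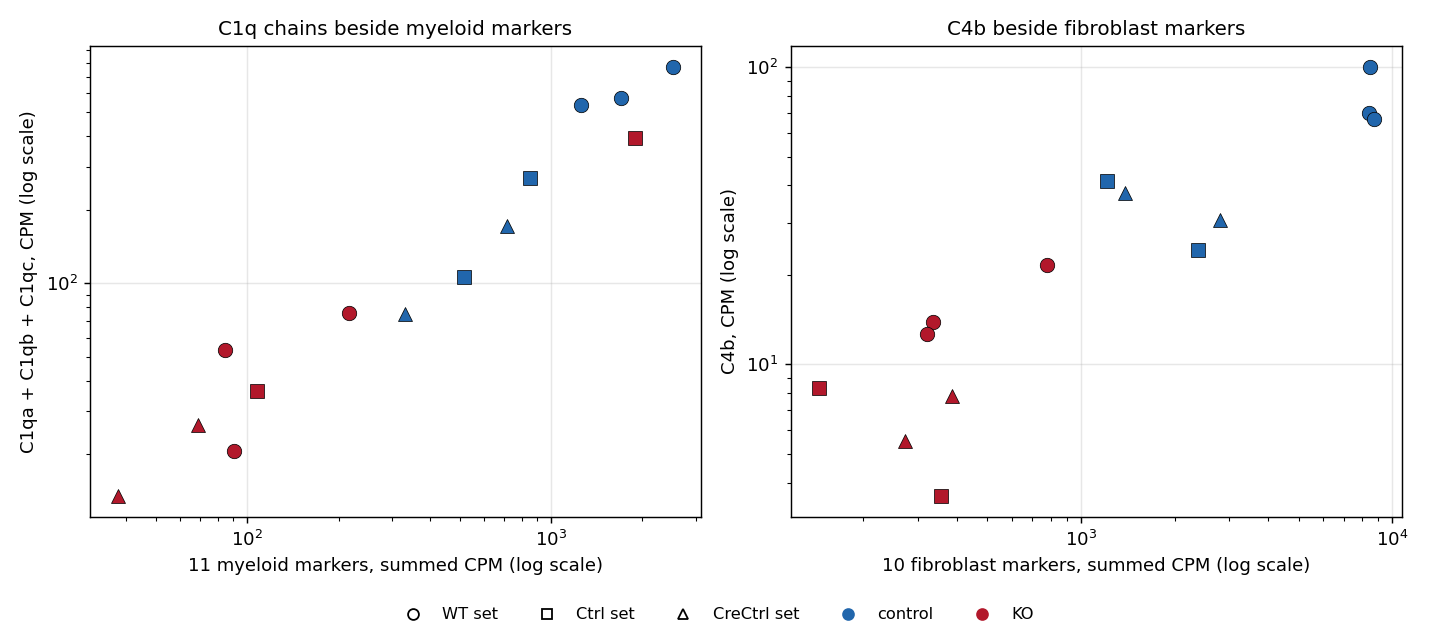
Left, summed C1qa, C1qb and C1qc (CPM, log axis) against the sum of 11 myeloid markers without Csf1r (CPM, log axis); right, C4b against the sum of 10 fibroblast markers, both in CPM on log axes. Each point is 1 of 14 libraries, shaped by set and coloured by control (blue) or KO (red); KO replicate 2 of the Ctrl set, at 1888 CPM of myeloid markers, lies among the controls on the left and at the lowest C4b on the right.

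The proteases that C1q activates were lower in KO than in WT. C1ra, encoding C1r, was at 126.9, 155.5 and 135.4 CPM in WT and at 26.08, 13.38 and 14.09 CPM in KO, with no overlap. Its log2 fold change was -2.96 ± 0.26 (SE, adjusted p = 9.06e-05, edgeR's quasi-likelihood test). C1s1, encoding its partner C1s and counted among the other complement genes, was at 278.4, 328.4 and 283.8 CPM in WT and at 37.85, 19.46 and 19.03 CPM in KO, a log2 fold change of -3.54 ± 0.28 (SE, adjusted p = 5.73e-05, edgeR).

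Against CreCtrl, C1ra was at 27.55 and 39.15 CPM in the controls and at 8.67 and 12.71 CPM in KO, a log2 fold change of -1.64 ± 0.27 (SE, adjusted p = 0.0118, edgeR). C1s1 was at 57.61 and 109.8 CPM in CreCtrl and at 9.22 and 16.07 CPM in KO, a log2 fold change of -2.72 ± 0.37 (SE, adjusted p = 0.00759, edgeR). Both genes lay lower in every KO library than in either control. In the Ctrl set C1ra was at 17.39 and 9.39 CPM in the controls and at 5.76 and 7.12 CPM in KO, without overlap, and its log2 fold change of -1.05 ± 0.45 (SE) was not called (adjusted p = 0.449, edgeR). C1s1 was at 43.56 and 31.11 CPM in Ctrl and at 8.95 and 13.72 CPM in KO, a log2 fold change of -1.72 ± 0.35 (SE) that was not called either (adjusted p = 0.122, edgeR), though it passed in DESeq2 (adjusted p = 0.00129). KO replicate 2 of that set, high in C1q, was thus among the low libraries for both proteases.

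The proportion of the proteases to each other was described without a test. Per kilobase of exon, the level of C1s1 was 1.99 to 3.16 times that of C1ra in the 7 control libraries and 1.01 to 1.84 times in the 7 KO libraries, with no overlap, a ratio that was chosen after its values were seen. The genes with the pattern most like that of C1ra over the 14 libraries were C1qtnf1, a secreted protein with a C1q-like domain, at a root mean square difference of 0.388 (log2), Igfbp6, a binding protein of insulin-like growth factors that is also in the fibroblast list below, at 0.411, and Smoc1, a matrix protein, at 0.412.

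C4b, which encodes the C4 that C1s cleaves, had a similar fold change in each set. It was at 70.23, 99.81 and 67.08 CPM in WT and 21.6, 13.92 and 12.69 CPM in KO, a log2 fold change of -2.30 ± 0.26 (SE, adjusted p = 0.000261, edgeR's quasi-likelihood test). In the CreCtrl set it was at 37.84 and 30.65 CPM in controls and 5.53 and 7.83 CPM in KO, a log2 fold change of -2.36 ± 0.24 (SE, adjusted p = 0.0039, edgeR). In the Ctrl set it was at 24.33 and 41.28 CPM in controls and 8.33 and 3.62 CPM in KO, and the log2 fold change of -2.46 ± 0.51 (SE) was not called (adjusted p = 0.129, edgeR) and became -3.19 with KO replicate 1 left out and -1.98 with KO replicate 2 left out. No KO library overlapped a control library of its set. With the same counts in the Ctrl set, C4b passed in DESeq2 (adjusted p = 0.000381), in edgeR with all 14 libraries as 6 groups (0.00875) and in edgeR with all genes of at least 1 count (4.65e-08). That last fit called 1658 of 23965 genes where the filtered fit called 0, and its log2 fold change of C4b was -2.47. Its smaller adjusted p thus came without a larger fold.

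C2, the other part of the enzyme that cleaves C3, moved less than the genes around it. It was at 10.4, 19.98 and 17.56 CPM in WT and at 8.29, 15.2 and 7.68 CPM in KO, with overlapping groups, and its log2 fold change of -0.62 ± 0.39 (SE) was not called (adjusted p = 0.258, edgeR). In the Ctrl set it was at 16.62 and 16.28 CPM in controls and 11.89 and 19.35 CPM in KO, with the KO libraries on either side of the controls, a log2 fold change of -0.074 ± 0.35 (SE). In the CreCtrl set it was at 9.27 and 17.02 CPM in controls and 7.08 and 4.85 CPM in KO, a log2 fold change of -1.14 ± 0.36 (SE) that missed the threshold in edgeR (adjusted p = 0.0683) and passed it in DESeq2 (adjusted p = 0.033). It also passed there in edgeR without KO replicate 1 (adjusted p = 0.0426), without CreCtrl replicate 1 (0.0134) and with all genes of at least 1 count (0.00382). The fits that leave out a library assume that the lone library of that arm varies as the other arm does. The genes with the most similar pattern were Trerf1, Il10rb and Slc31a2, at root mean square differences of 0.396 to 0.407 (log2), against a spread of 0.621 of C2 itself.

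C3, the component on which both pathways converge, was lower in KO than in WT and varied widely within both groups. It was at 54.55, 159.6 and 66.33 CPM in WT and at 14.11, 1.69 and 1.34 CPM in KO, where replicate 1 was far above the other two. The log2 fold change was -4.03 ± 0.87 (SE, adjusted p = 0.00721, edgeR), and it ranged from -3.40 without WT replicate 2 to -5.88 without KO replicate 1, still called in both. Without KO replicate 2 and without KO replicate 3 it was -3.48 and -3.44. In the CreCtrl set C3 was at 15.63 and 29.75 CPM in controls and 1.91 and 3.57 CPM in KO, a log2 fold change of -3.04 ± 0.42 (SE, adjusted p = 0.00804, edgeR) that was no longer called with the spread of all 14 libraries (adjusted p = 0.0858). In the Ctrl set it was at 14.14 and 21.3 CPM in controls and 1.94 and 6.09 CPM in KO, without overlap. That log2 fold change of -2.14 ± 0.62 (SE) was not called in edgeR (adjusted p = 0.216) and was called in DESeq2 (adjusted p = 0.0256). It was also called in edgeR with all genes of at least 1 count (adjusted p = 0.000265), a fit that called 1658 of 23965 genes. It was -3.18 without KO replicate 2 of that set and -1.55 without KO replicate 1, not called in either. The genes with the most similar pattern were Itih2, Lrrn4cl and Cd200, at 0.468 to 0.522 (log2), and for C4b they were Sema4c, Nfkbia and Tcim, at 0.433 to 0.460.

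**Figure D2:**
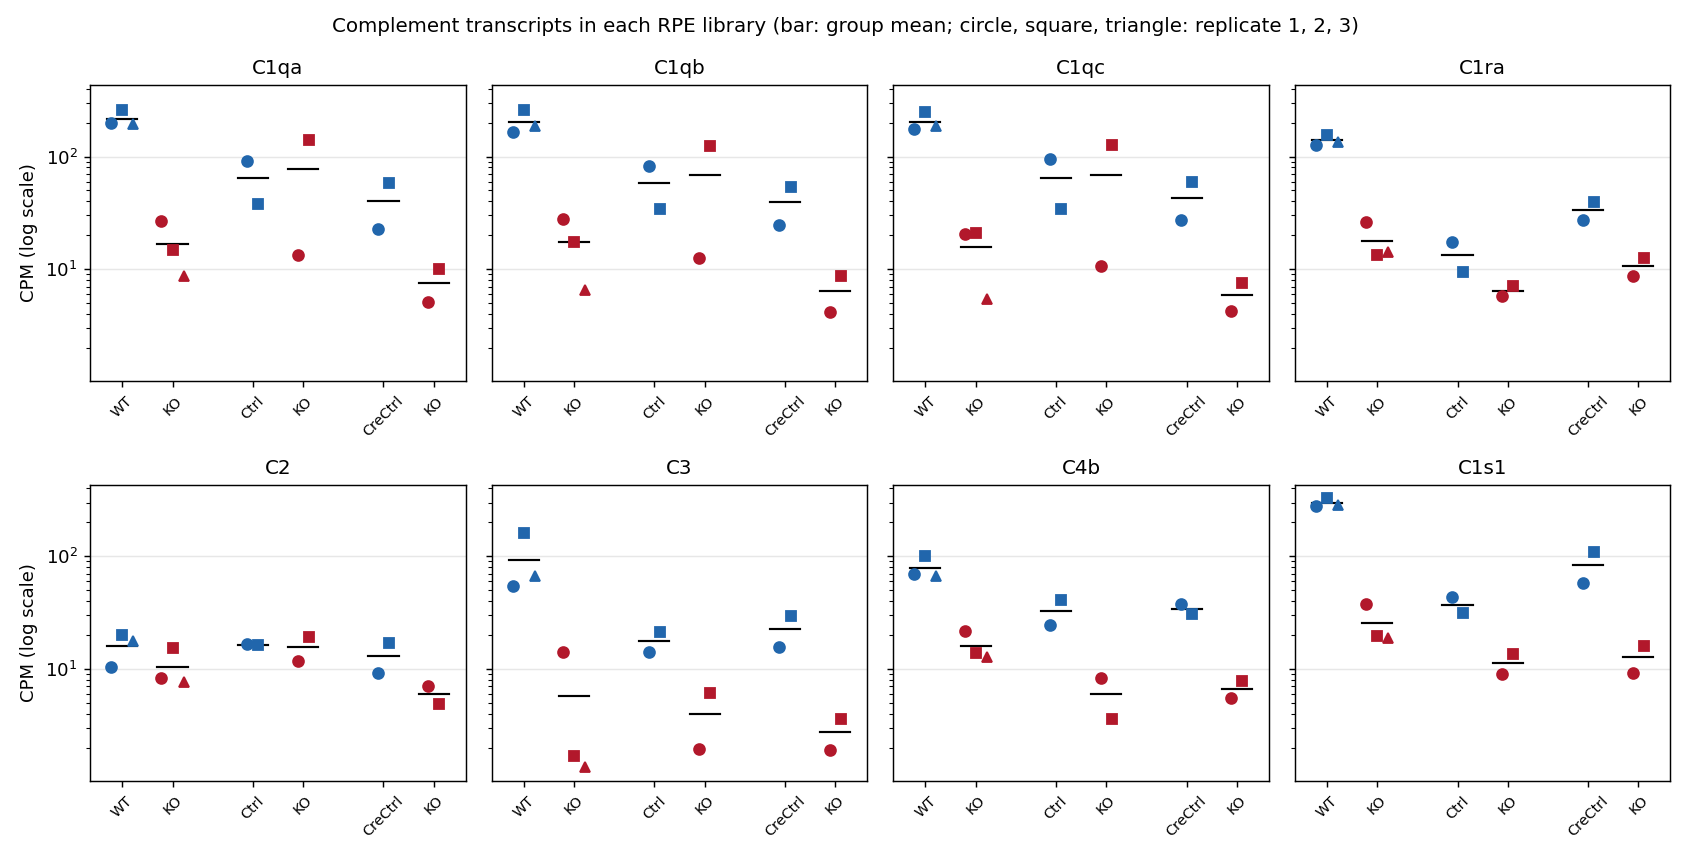
Level of each of 7 complement components and of C1s1 in all 14 libraries, in CPM on a log axis. Points are libraries (blue control, red KO, with circle, square and triangle for replicates 1, 2 and 3) and bars are group means; the C1q chains bracket the Ctrl controls in KO at 10.58 to 140.9 CPM, while C3 and C4b are below the controls in every set.

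Fibroblast markers were lower in KO, as were C1ra, C1s1, C3 and C4b. All 10 markers were called lower in KO than in WT and 9 were called lower than in CreCtrl, beside 17.6% and 12.2% of all genes. None was called against Ctrl, where in 9 of 10 each KO library lay below each control, beside 22.8% of all genes. Their summed level was 8412 to 8719 CPM in WT and 321.9 to 778.3 in KO, 1210 to 2372 in Ctrl and 144.2 to 356.9 in KO, and 1388 to 2807 in CreCtrl and 273.4 to 384.9 in KO. All 10, including Dcn, Lum and Col1a1, were detected in all 14 libraries. KO replicate 1 of the WT set, the highest of the 7 KO libraries in C3 and C1ra, also had the highest fibroblast sum among them. In the Ctrl set the fibroblast sum was 144.2 CPM in KO replicate 1 and 356.9 in KO replicate 2. C4b went the other way, at 8.33 and 3.62 CPM. C1ra was 0.733 to 1.984% of the fibroblast sum in the 7 control libraries and 1.995 to 4.379% in the 7 KO libraries. C4b was 0.769 to 5.78% of that sum and C3 0.415 to 1.88%, with KO and control overlapping over the 14 libraries. Within the WT set C4b did not overlap, at 2.78 to 4.16% in KO and 0.769 to 1.18% in WT, and it overlapped in the other sets. C3 overlapped in the WT and Ctrl sets and was 0.698 to 0.927% in KO and 1.06 to 1.13% in CreCtrl. Of 10 endothelial markers 8 were called lower in KO than in WT, 8 than in CreCtrl and 0 than in Ctrl. Pericyte and smooth muscle markers were called lower in 4 of 7 against WT, with sums of 2249 to 2325 CPM in WT and 350.6 to 440.5 in KO, and in 4 of 7 against CreCtrl, with 469.9 to 698.3 and 301.1 to 351.9 CPM. Against Ctrl 0 of these 7 were called, and Acta2 and Cspg4 had log2 fold changes above 0 against WT and CreCtrl. Rod markers were called lower in 9 of 10 against CreCtrl, with sums of 1214 to 4944 CPM in CreCtrl and 566.4 to 624.1 in KO, and in 0 of 10 against WT. All 10 had log2 fold changes above 0 against WT, where 1 was called higher, and against Ctrl, where 0 were called. Of 10 RPE markers 9 were called higher in KO than in WT, 1 than in CreCtrl and 0 than in Ctrl. Among all genes 2171 of 15428, 552 of 15963 and 0 of 15287 were called higher in these comparisons. Best1 went the other way against WT and CreCtrl, at log2 fold changes of -1.82 and -1.11, and Trpm1 against Ctrl and CreCtrl, at -0.67 and -0.80. No RPE marker was called lower within a set, and 1 was over 3 sets, beside 16.8% of all genes. Best1 reached at most 6.41 CPM and Ttr 40990 CPM, so the sum that follows says little of Best1. The sum of the RPE markers was 73790 to 81000 CPM in KO against 17710 to 26010 in WT. It was 69380 to 71250 against 44900 to 45840 in the Ctrl set, and 69610 to 77970 against 51250 to 58310 in the CreCtrl set. The part of these cell types in the complement results was not tested.

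Factor B and factor D, the alternative pathway proteases, were at or near 0. Cfb was at 0 counts in 9 of the 14 libraries and reached 18 counts (1.67 CPM) in WT replicate 2, its highest. The other libraries above 0 were CreCtrl replicate 2 with 11 counts, Ctrl replicate 1 with 7, CreCtrl replicate 1 with 5 and, as the single KO library, that of replicate 1 in the Ctrl set with 3. Cfd was at 0 counts in 10 libraries, at 60 counts (5.58 CPM) in WT replicate 2, at 13 counts (0.45 CPM) in KO replicate 2 of the CreCtrl set and at 1 count in each of WT replicate 1 and CreCtrl replicate 1. WT replicate 2 alone held 60 of the 75 Cfd reads of the series. At these depths a library at 0 could hold up to 3 counts, or 0.0926 to 0.305 CPM, from counting error alone. Neither gene passed the filter on low counts in any set or in the fit over 3 sets, and no fold is given. In fits that kept more genes, all 14 libraries as 6 groups did not call Cfb, and all genes of at least 1 count called Cfb lower against CreCtrl (adjusted p = 0.0308, edgeR) and over 3 sets (0.0471) but not Cfd, at levels of at most 11 counts in CreCtrl and 0 in both its KO libraries. By the same likeness rule the closest genes were Fbxw10, Gm37033 and Fat3 for Cfb (0.838 to 0.873) and Ccl9, Ece2 and Cdyl2 for Cfd (1.10 to 1.12), values that are large beside the spreads of 1.32 and 1.55 of the 2 genes themselves.

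**Figure D3:**
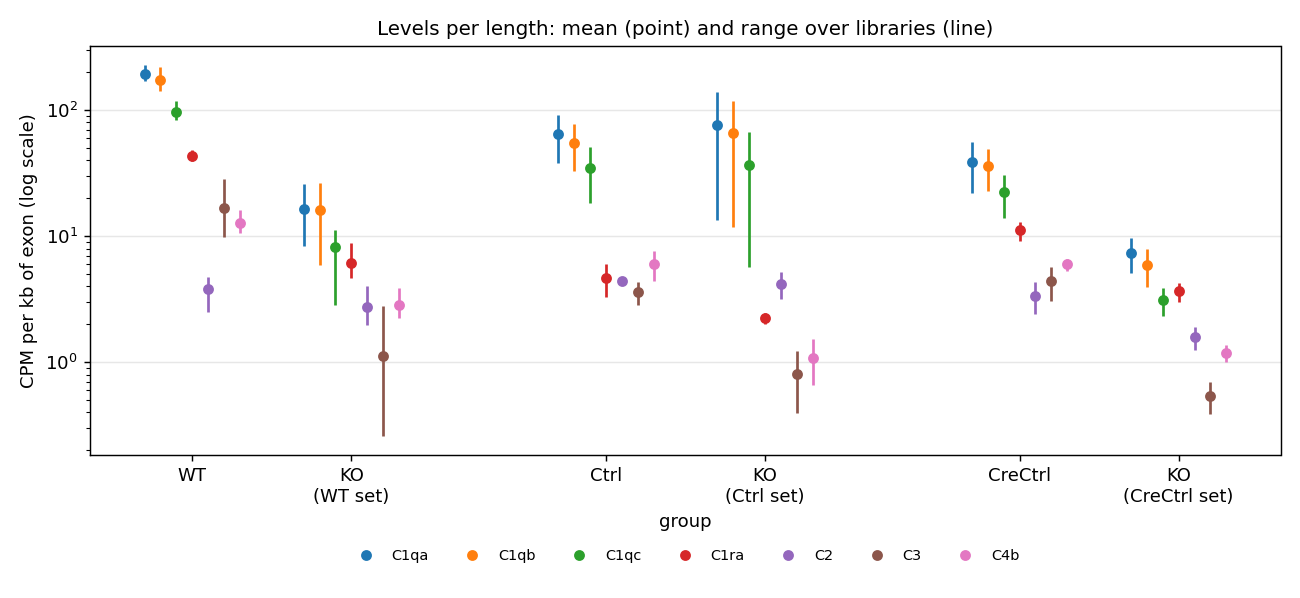
Levels of the 7 components above the filter per length, in CPM per kilobase of exon on a log axis, by group. Points are group means and lines run from the lowest to the highest library; C1qa and C1qb lead in all 6 groups, and C3 has the lowest mean in all 3 KO groups, at 0.541 to 1.13 CPM per kilobase.

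Per kilobase of exon, C1qa had the highest mean level in all 6 groups, from 193.1 CPM per kilobase in WT to 7.42 in KO of the CreCtrl set, and C1qb followed it with an overlapping range. C1qc came next except in KO of the CreCtrl set, where C1ra was above it at 3.65 against 3.12 CPM per kilobase. In WT the order went on with C1ra at 43.1, C3 at 16.8, C4b at 12.8 and C2 at 3.80 CPM per kilobase. In all 3 KO groups C3 had the lowest mean of the 7, at 1.13, 0.811 and 0.541 CPM per kilobase. Across groups, on a scale common to the 14 libraries, WT had the highest mean of C1qa, C1qb, C1qc, C1ra, C3 and C4b, with a range that did not overlap that of the next group for C1ra, C3 and C4b, nor for the C1q chains. For C1q the next groups in order, KO of the Ctrl set, Ctrl and CreCtrl, overlapped each other. For C2 the order ran from Ctrl at 17.1 CPM to KO of the CreCtrl set at 6.11 CPM, and the ranges of neighbours overlapped down to KO of the WT set.

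Of the 9 components, 7 passed the filter on low counts in each set. Against WT, 6 of the 7 were called lower and 0 higher, where 17.6% of the 15428 genes tested were called lower. In 6 of the 7 every KO library was below every WT library, beside 28.4% of all genes. The median log2 fold change of the 7 was -3.56, against -0.079 over all genes tested. Against CreCtrl, 6 of the 7 were called lower, beside 12.2% of all genes, and all 7 had both KO libraries below both controls, beside 36.9% of all genes. The median was -2.41 against -0.022 over all genes. With all 14 libraries as 6 groups 2 components, C1ra and C4b, were called lower in that comparison, beside 2.86% of genes.

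Against Ctrl, edgeR called 0 of the 7, where 0% of the 15287 genes tested were called, while 1846 genes and 2 of the components, C3 and C4b, had an unadjusted p under 0.05. DESeq2 called 2 of the 7 lower, and 7.16% of all genes. In 3 of the 7, C1ra, C3 and C4b, both KO libraries were below both controls, beside 22.8% of all genes. The median log2 fold change was -0.074 against 0.013 over all genes.

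With the 3 sets in 1 fit and set as a covariate, 6 of the 7 were called lower, beside 16.8% of 14925 genes. The log2 fold changes were -2.25 ± 0.69 (SE) for C1qa, -2.26 ± 0.69 for C1qb, -2.44 ± 0.70 for C1qc, -2.02 ± 0.29 for C1ra, -3.19 ± 0.56 for C3 and -2.32 ± 0.21 for C4b. The adjusted p-values of edgeR's quasi-likelihood test were 0.0186, 0.0179 and 0.0139 for the C1q chains, 0.000271 for C1ra, 0.000974 for C3 and 1.15e-05 for C4b. C2, at -0.57 ± 0.26 (SE), was not called (adjusted p = 0.0919). For C3 and C4b every one of the 7 KO libraries was below every one of the 7 controls, beside 5.32% of all genes. The margin was narrow for C3, on a scale common to the 14 libraries. KO replicate 1 of the WT set was at 14.35 CPM and Ctrl replicate 1 at 14.61, and for C4b these libraries were at 21.97 and 25.14 CPM. The calls of the C1q chains rested on the sets that entered: 3 of the 7 components were called without the WT set, where 6.47% of genes were called lower, and 3 without the CreCtrl set, where 13.3% were. In these fits the C1q chains had adjusted p-values of 0.39 to 0.472 and 0.105 to 0.119 in edgeR. Without KO replicate 2 of the Ctrl set all 7 were called lower, beside 17.9% of genes, with -2.94, -2.93 and -3.15 for the C1q chains and -0.70 for C2 (adjusted p = 0.0402, edgeR).

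**Figure D4:**
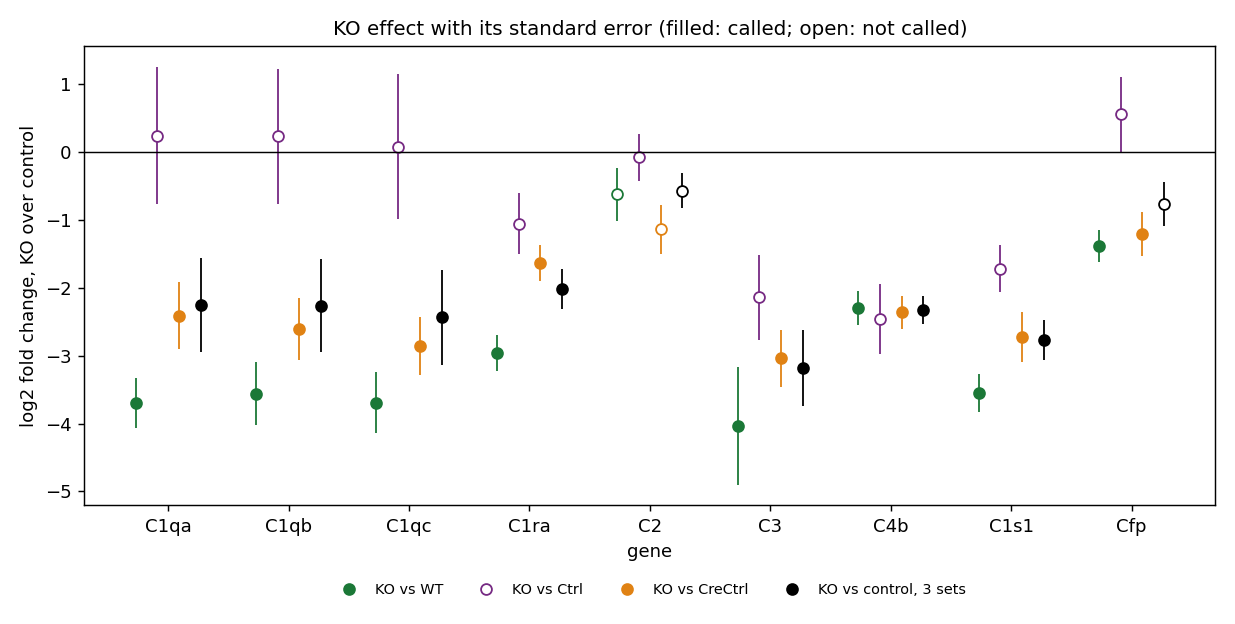
Log2 fold change of KO over control with its standard error for 7 complement components, C1s1 and Cfp, in the 3 sets and in the fit over all 3. Filled points are called (adjusted p under 0.05 and fold above 1.5) and open points are not; C4b lies between -2.30 and -2.46 in each set, and the C1q chains lie between 0.082 and 0.25 against Ctrl.

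The size of the KO effect was compared between sets in a fit of all 14 libraries. The log2 fold change of C1ra in the WT set minus that in the Ctrl set was -1.78 ± 0.46 (SE, adjusted p = 0.0449, edgeR), and C1ra was the 1 component called of the 8 tested in this fit, which kept Cfb, beside 5.15% of 17662 genes. That call was lost in 9 of 14 alternatives, with adjusted p-values of 4.12e-05 to 0.193 over all of them. For the C1q chains the difference was -3.80 ± 1.07, -3.66 ± 1.09 and -3.63 ± 1.13 (SE) and missed the threshold (adjusted p = 0.0572, 0.0704 and 0.081, edgeR). No component was called for a difference between the WT and CreCtrl sets, beside 1.49% of genes, and 1 of the 7, C1ra, had an unadjusted p under 0.05. No component, and 0% of genes, passed between the Ctrl and CreCtrl sets, where the 3 C1q chains had an unadjusted p under 0.05. For C4b the differences were 0.31 ± 0.51, 0.17 ± 0.51 and -0.14 ± 0.56 (SE).

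Of 21 other components of the cascade, 7 passed the filter in the WT set and 4 were called lower: C1s1, Cfp, C7 and Fcna. The share of all genes called lower was 17.6% against WT, 12.2% against CreCtrl, 0% against Ctrl and 16.8% over 3 sets. Cfp, encoding properdin, was at 39.48, 36.99 and 27.66 CPM in WT and 15.58, 11.15 and 13.29 CPM in KO, a log2 fold change of -1.38 ± 0.23 (SE, adjusted p = 0.00207, edgeR). C7, a subunit of the membrane attack complex, averaged 11.5 ± 4.16 CPM (SD, n = 3) in WT and 0.58 ± 1.00 in KO, and Fcna, a ficolin that starts the lectin pathway, 4.69 ± 2.69 and 0.13 ± 0.23 CPM. The call of C7 was lost in DESeq2 (adjusted p = 0.106) and without any 1 of the WT replicates or of KO replicates 2 and 3 (edgeR adjusted p = 0.062 to 0.122), and that of Fcna without WT replicate 2 or 3 or KO replicate 2 or 3 (0.0629 to 0.101) and with a replicate block (0.078). Against CreCtrl 8 of the 21 were tested and 2 were called lower, C1s1 and Cfp, the latter at 15.63 and 22.46 CPM in controls and 10.46 and 6.06 CPM in KO (log2 fold change -1.20 ± 0.32, SE, adjusted p = 0.0478, edgeR). The call of Cfp was lost without KO replicate 2 of the set (adjusted p = 0.193), without CreCtrl replicate 2 (0.149) and in the 6-group fit (0.123). Against Ctrl 5 were tested and none was called. There Cfp was at 10.76 and 4.48 CPM in controls and 8.45 and 13.9 CPM in KO, with overlap. In the fit over 3 sets 6 were tested and C1s1 and C7 were called lower. Mbl1, a mannose-binding lectin, was at 0 in all 14 libraries.

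Of 9 complement receptor genes, 8 were tested against WT and 6 were called lower. These were C3ar1 and C5ar1, the receptors of the fragments C3a and C5a, the integrin chains Itgam, Itgax and Itgb2 that form receptors of cleaved C3, and Cd93. Of all genes tested, 17.6% were called lower against WT, 12.2% against CreCtrl, 0% against Ctrl and 16.8% over 3 sets. The log2 fold change was -5.19 ± 0.86 (SE) for C3ar1 and -3.74 ± 0.49 for C5ar1 (adjusted p = 0.00189 and 0.000576, edgeR). That of C3ar1 became -6.41 with KO replicate 1 left out and -4.51 with KO replicate 3 left out, still called. Against CreCtrl 6 of 8 were called lower, among them C5ar1, whose call was lost without CreCtrl replicate 2 (adjusted p = 0.0823, edgeR), and against Ctrl 0 of 7. In the 6-group fit neither C3ar1 nor C5ar1 was called against CreCtrl (adjusted p = 0.117 and 0.0564, edgeR). The log2 fold change of C3ar1 there was -3.33 with all libraries, -4.20 without KO replicate 2 and -2.60 without CreCtrl replicate 2, and that of C5ar1 was -3.10 and became -2.30 without CreCtrl replicate 2. Against Ctrl the log2 fold changes of C3ar1 and C5ar1 were -0.17 ± 1.14 and -0.44 ± 0.89 (SE). In the fit over 3 sets 7 of the 7 tested were called lower, and without the WT set C3ar1 and C5ar1 were not (adjusted p = 0.339 and 0.22, edgeR). C3ar1, C5ar1 and the integrin chains are expressed by myeloid cells, whose markers moved with them as given above.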

How the data were processed

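RNA of 14 RPE libraries (mRNA, stranded kit, paired-end) had been sequenced. Per the labels, the authors' processing notes name STAR 2.5.2, HTSeq 0.11.2 and Cufflinks 2.1.1 and the build GRCm38. The deposited table holds raw counts per gene and library, not normalized, for 42687 Ensembl genes, of which 42329 matched GENCODE M21 and 42250 had a symbol. Libraries are separate mice.

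Within each set, genes were filtered with filterByExpr, scaled by TMM and tested with edgeR 4.0.16 (quasi-likelihood, R 4.3.3), with Benjamini-Hochberg adjustment over all genes tested. DESeq2 1.42.0, the study's tool, was an alternative. SE is the size of the log2 fold change over the square root of the F statistic. Differences between sets came from all 14 libraries as 6 groups. Levels between genes were divided by the union of exons in M21. The named genes were the 9 components, the other complement genes called against WT with Cfp and C1s1, and the 3 genes with the most similar centred log2 CPM (prior count 2) to each pattern. Components and lists of myeloid, fibroblast, endothelial, pericyte, rod and RPE markers were chosen with earlier results of these data known. The fit was tested on simulated counts, and no 2 libraries were identical. Exact permutation of 3 against 3 libraries cannot go below 0.1 and of 2 against 2 below 0.333, so single values were given no such test. The other alternatives were RLE scaling, library size alone, all genes with at least 1 count, a 6-group fit, a replicate block, no set covariate, and leaving out each library or set.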

Additional observations from a re-analysis of the deposited data

Results flagged for a closer look

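With all 7 KO libraries taken as 1 group, replicate 2 of the Ctrl set was far above the rest in the C1q chains: the gap to its nearest neighbour was 0.845 of the whole range for C1qa, 0.806 for C1qb and 0.864 for C1qc, above Dixon's 95% critical value for 7 samples, as were the gaps that follow. KO replicate 1 of the WT set was far above the other KO libraries in C1ra, with a gap of 0.605 of the range, and in C3, with 0.617. For Cfb the gap was 1 because KO replicate 1 of the Ctrl set had 3 counts and the other KO libraries none, and for Cfd it was 1 because KO replicate 2 of the CreCtrl set had 13 counts and the others none. The rate behind that value, about 1 in 20 groups, holds for normally distributed values. The gaps were taken on CPM without logs, so the rate need not hold here. For Cfb and Cfd a gap of 1 follows whenever 1 library alone is above 0, so the critical value tells nothing there. The 3 chains of C1q count as 1 pattern. The 7 libraries come from 3 sets, so part of their spread can be that between sets. The KO effect on C1ra was called different between the WT and Ctrl sets, by -1.78 on the log2 scale in the fit over all 14 libraries. That call was lost in 9 of 14 alternatives, and 5.15% of all genes passed the same comparison.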

How the results depend on the processing

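Of 294 values recomputed for the 7 tested components within sets and in the fit over 3 sets, 258 kept their direction and their side of the threshold, 13 lost the call, 12 gained it and 11 reversed; for C1ra, C3 and C4b 120 of 126 were kept and 0 reversed. Against WT the count was 6 in all 12 alternatives, beside 10.9 to 23.2% of genes called lower. Against Ctrl it was 2 with all genes of at least 1 count, 2 in DESeq2 and 1 in the 6-group fit, and against CreCtrl 2 in the 6-group fit, 8 with all genes, 7 in DESeq2 and 6 to 7 leaving out 1 library. In the fit over 3 sets it was 3 without a set covariate, 3 without the WT set and 3 without the CreCtrl set, 7 with library size alone, 7 with all genes, and 7 without KO replicate 2 of the Ctrl set, the last an alternative chosen after seeing the data. Beside the counts against Ctrl, 6.81% of genes were called lower with all genes of at least 1 count, 7.16% in DESeq2 and 3.6% in the 6-group fit. For CreCtrl the share of all genes was given above only for the 6-group fit. Over 3 sets it was given without the WT set, without the CreCtrl set and without KO replicate 2 of the Ctrl set. The other counts have no share beside them here, so they are not a result about the components in particular. The causes were not tested.

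Against Ctrl, C1qc reversed to -0.0705 with library size alone. Leaving out 1 library gave -2.28 to 1.11 for C1qa, -2.21 to 1.10 for C1qb, -2.60 to 1.01 for C1qc -0.46 to 0.23 for C2, -3.40 to 0.74 for C3ar1 and -2.16 to 0.31 for C5ar1. The count of components whose effect differed between the WT and Ctrl sets was 5 with all genes of at least 1 count. With all genes it was 3 between the WT and CreCtrl sets and 3 between the Ctrl and CreCtrl sets. Cfd was among those between the WT and CreCtrl sets (adjusted p = 0.0483, edgeR), a gene near 0 with 60 of its 75 reads in WT replicate 2. The share of all genes in these fits is not given here, so the counts are not a result about the components in particular. Leaving out 1 library, the difference between the WT and Ctrl sets was -0.80 to 0.0086 for C2 and -0.20 to 1.05 for C4b, that between the WT and CreCtrl sets -0.10 to 0.42 for C4b, and that between the Ctrl and CreCtrl sets -0.19 to 1.45 for C3 and -0.87 to 0.34 for C4b, which was 0.0237 with library size alone.

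Same-numbered libraries of a set did not deviate together throughout. Over 11618 genes the correlations of their deviations were -0.035, 0.094 and 0.272 for the pairs with WT. They were -0.032 for those with Ctrl and 0.27 for those with CreCtrl, against a minimum of 0.1 set for pairing. With 2 libraries a group both pairs of a set give the same value by construction. Pairing by number is thus not shown, and in the CreCtrl set it is not excluded. With a replicate block the calls were 6 of the 7 against WT, beside 16% of genes called lower, and 0 against Ctrl, beside 0.739%. In that fit against Ctrl C1qa, C1qb and C1qc reversed to -0.42, -0.40 and -0.60. Against CreCtrl the calls were 7, where C2 was added, and the share of all genes there is not given here. The block also lost the call of Fcna against WT (adjusted p = 0.078, edgeR). The block left 0 components that differed between the WT and Ctrl sets.

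Library size alone moved the all-gene median (log2) to -0.32 against WT, -0.10 against Ctrl and -0.24 against CreCtrl, and the share of calls that were higher in KO from 44.4% to 28.3% against WT and from 22.1% to 6.13% against CreCtrl. With 2 libraries a group, a component that missed the threshold is not shown to be unaffected.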
